A study of Isodiametra pulchra with 2 samples.

Results

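Transcripts of dissociated *Isodiametra pulchra* hatchlings, an acoel worm that lives in marine sediment, were examined for the features recovered together with DN22219_c0_g1. The group holds 51 features of the 23786 listed, that is DN22219_c0_g1 itself, called the reference below, and the 50 features most strongly correlated with it, chosen by their correlations within single barcodes of these libraries. Names are Trinity transcriptome assembly identifiers, given here without their prefix TRINITY_, and the part before "_g" is the component, a set of transcripts that were assembled from overlapping reads. The files pair no gene name or function with any identifier, so members are described by their identifiers and by where their transcripts were found.

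The data are 2 droplet libraries, library 1 and library 2 after their run numbers, and both belong to 1 group of wild-type hatchlings. Animals were kept at 20°C on a diet of diatoms and were dissociated in collagenase at 1 mg/ml for 1 h at 25°C, and all cells were loaded without a sort. The labels name 10x Genomics 3′ kits of versions 2 and 3, so kit and library cannot be told apart, and they do not say whether the libraries came from separate animals or cultures. There is no treatment or genotype to compare, and the comparisons below are between sets of barcodes, read in each library.

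Acoels are bilaterally symmetric worms with a ciliated epidermis, muscle, nerve cells, gland cells and a digestive tissue without a permanent gut cavity, and their dividing stem cells, the neoblasts, lie in the parenchyma. In droplet sequencing each barcode marks 1 droplet, and each unique molecular identifier (UMI) marks 1 captured RNA molecule. Transcripts made by the same kind of cell are recovered in the same barcodes, while RNA released by broken cells is recovered at a low level in every droplet. Droplets without a cell show the makeup of that free RNA.

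Members were chosen in called barcodes, which are those with at least 166 UMIs in library 1 and 1027 in library 2. The Pearson correlation r between the reference and every other feature was computed in each library over log-scaled UMIs, with the reference left out of each barcode's total. Of the listed features, 11618 were found in at least 10 called barcodes of each library and were ranked by the lower of their 2 values of r. The values of r in called barcodes therefore chose the members, and all values in called barcodes are given as a description. The last members inside the limit were DN22020_c0_g1, with r of 0.0526 in library 1 and 0.0761 in library 2, and DN26322_c0_g4, with 0.0588 and 0.0523. The first features outside it were DN23582_c1_g2, with 0.0513 and 0.0535, and DN28250_c1_g3, with 0.0506 and 0.0803. The values on both sides of the limit are nearly the same, so the last places of the list are arbitrary.

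Library 1 held 6581711 UMIs and 4483 called barcodes with a median of 288 UMIs, and library 2 held 34060611 UMIs and 3275 called barcodes with a median of 1520. No barcode sequence was called in both libraries (0 shared). Doublets, droplets with more than 1 cell, were not removed when members were chosen. Removing the barcodes with the highest doublet scores, 3.59% in library 1 and 2.63% in library 2, took out 0 of 22 and 1 of 18 of the barcodes rich in the reference that are described next. Intervals given below are exact 95% intervals and cover counting error only.

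The reference was concentrated in few barcodes. It had 3727 UMIs in called barcodes of library 1 and 1473 in library 2, and it was found in 315 barcodes (7.03%, 6.30 to 7.81%) and in 118 barcodes (3.60%, 2.99 to 4.30%). Barcodes with at least 10 reference UMIs, called reference-rich, numbered 22 in library 1 and 18 in library 2, and they held 91.1% and 90.5% of its called UMIs. Reference UMIs per reference-rich barcode ranged from 10 to 596 around a median of 105 in library 1, and from 12 to 267 around a median of 45.5 in library 2. The remaining barcodes mostly held a single molecule, with exactly 1 reference UMI in 268 of 293 barcodes of library 1 and in 79 of 100 of library 2. Empty droplets were taken as barcodes whose total lay no more than 20% from the most frequent total of the library. Of these, 3.85% of 44395 in library 1 and 2.28% of 35133 in library 2 held the reference. Empty droplets were shallower, with median totals of 60 and 325 UMIs. The single molecules of the called barcodes are therefore not read as expression of the reference.

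In reference-rich barcodes the reference was a large part of the captured RNA in library 1 and a smaller one in library 2. Its share of a barcode's UMIs ran from 2.15 to 45.4% with a median of 17.1% in library 1, and from 0.325 to 9.16% with a median of 1.54% in library 2. The same gap between libraries was present in empty droplets, where the reference had 733 UMIs per 1000000 other UMIs in library 1 and 94.1 in library 2. UMIs per 1000000 other UMIs, meaning all UMIs but those of the reference, are called CPM from here on. Even without the reference, reference-rich barcodes held more UMIs than other called barcodes, with medians of 477 against 287 in library 1 and 2619 against 1518 in library 2.

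The strength of the correlations separates a short head from a long tail. In both libraries 11 of the 50 members had r of at least 0.2 and are called the leading members, another 11 lay from 0.1 to 0.2, and 28 lay below 0.1 by their lower r. Over all ranked features the median r was -0.0011 in library 1 and -0.0013 in library 2, and the 99th percentiles were 0.0566 and 0.0636, so the weakest members stand near the top percentile of all features. In both libraries 52 ranked features had r of at least 0.05. None had r at or below -0.05 in either library, where the lowest values were -0.0415 and -0.0484. With the reference in so few barcodes r has little room below 0, so these counts are not compared. Correlations in such sparse counts rest on few barcodes, and 15 of the 50 members were found in fewer than 50 called barcodes of library 1.

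**Figure D1:**
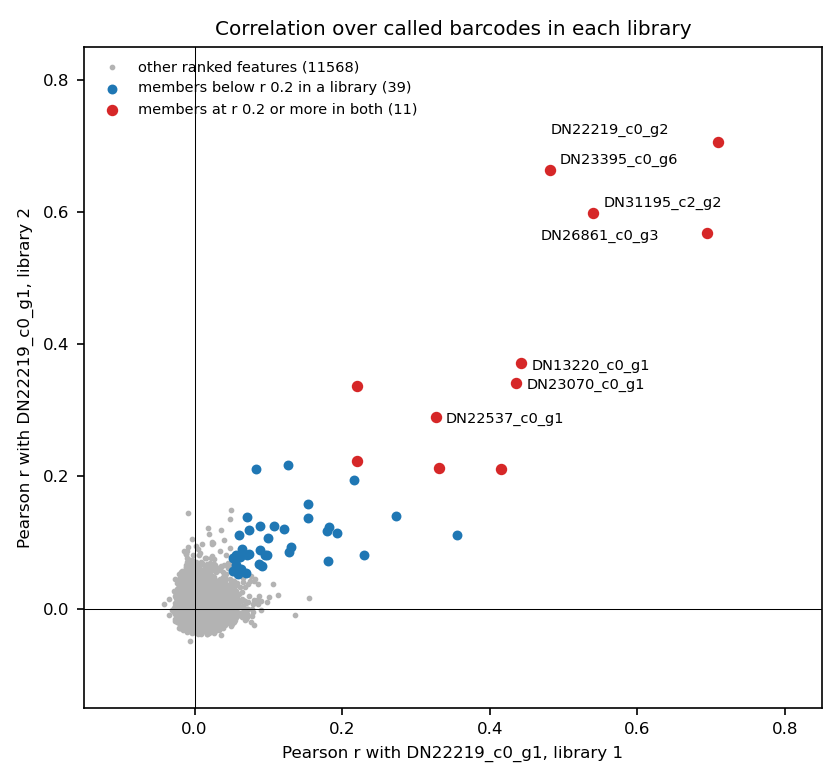
Pearson r with the reference in called barcodes, library 1 on the x axis and library 2 on the y axis, 1 point per ranked feature with members marked. The 11 leading members lie above 0.2 in both libraries, and the other members join the cloud of all features.

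**Figure D2:**
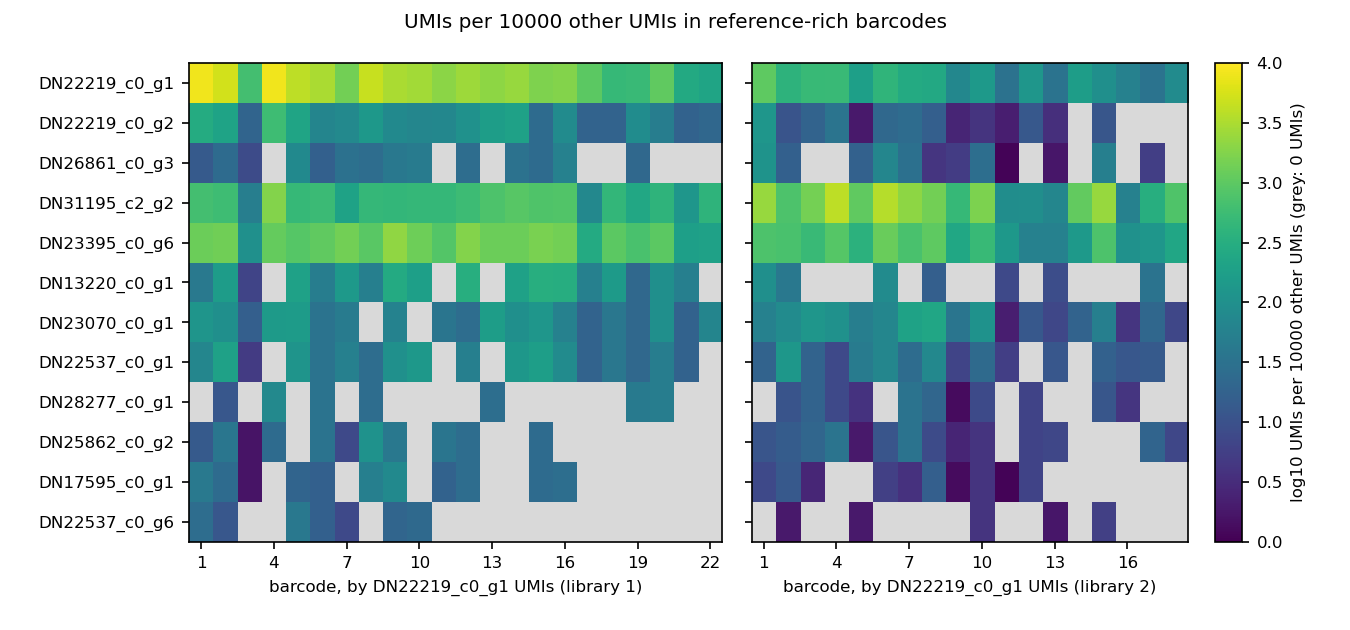
Colour map of the reference and the 11 leading members (rows) in each reference-rich barcode (columns, in order of reference UMIs), 22 barcodes in library 1 and 18 in library 2. Colour is the log10 of UMIs per 10000 other UMIs and grey is 0 UMIs, and besides the reference only the rows of DN31195_c2_g2 and DN23395_c0_g6 have no grey in either library.

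DN22219_c0_g2 had the highest correlation with the reference, with r of 0.708 in library 1 and 0.706 in library 2. It comes from the same component, so reads of one may have been counted for the other and its values are uncertain in that respect. It was found in 22 of 22 reference-rich barcodes of library 1, with 1 to 23 UMIs and a median of 4, and in 14 of 18 of library 2, with 0 to 34 UMIs and a median of 2. Of its called UMIs, 85.1% (78.8 to 90.1%) lay in reference-rich barcodes of library 1 and 88.3% (80.0 to 94.0%) in those of library 2. The remaining feature of the component, DN22219_c0_g3, followed another pattern, and it is named here after its values were seen. It had 0 called UMIs in library 1, and 1 of its 95 called UMIs in library 2 lay in a reference-rich barcode.

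DN31195_c2_g2 and DN23395_c0_g6 were the 2 members present in every reference-rich barcode of both libraries, and the most abundant ones. DN31195_c2_g2 had 4 to 73 UMIs per reference-rich barcode with a median of 25 in library 1, and 14 to 1021 with a median of 384.5 in library 2. Its level over these barcodes was 34040 CPM (31307 to 36947) in library 1 and 100662 CPM (98208 to 103163) in library 2. The remaining called barcodes had 114 and 121 CPM. DN23395_c0_g6 had 9 to 181 UMIs with a median of 48.5 in library 1, and 9 to 388 with a median of 156.5 in library 2. Its level was 74328 CPM in library 1 and 40656 CPM in library 2, 285-fold and 765-fold that of the other called barcodes. The order of the abundant members thus differed between libraries, with DN23395_c0_g6 above DN31195_c2_g2 in library 1 and below it in library 2. These sums give deep barcodes more weight, and 1 barcode held 6090 of the 16804 other UMIs of reference-rich barcodes in library 1. Without it the levels of the leading members in library 1 were 1.29 to 1.57 times as high, and DN23395_c0_g6 at 110790 CPM still stood above DN31195_c2_g2 at 50495 CPM. Without the deepest reference-rich barcode of library 2 the levels there were 1.08 to 1.17 times as high.

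DN26861_c0_g3 was scarce, and in library 1 it was nearly restricted to reference-rich barcodes. Of its 29 called UMIs in library 1, 28 lay in reference-rich barcodes (96.6%, 82.2 to 99.9%), and of its 117 in library 2, 79.5% (71.0 to 86.4%) did. Its UMIs were found in 14 of 22 reference-rich barcodes of library 1 and in 12 of 18 of library 2. DN13220_c0_g1 had 57.0% and 65.9% of its called UMIs there, but was absent from several reference-rich barcodes, with detection in 18 of 22 and 7 of 18. These 5 members had at least 50% of their called UMIs in reference-rich barcodes of both libraries, and they were the only 5 of the ranked features to do so (0.043%), a count that the choice of members by r bears on.

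The other leading members were also found outside reference-rich barcodes. DN23070_c0_g1 was detected in 20 of 22 and 18 of 18 reference-rich barcodes, and these held 45.8% and 35.2% of its called UMIs. DN22537_c0_g1 was detected in 18 of 22 and 15 of 18, with 32.9% and 21.8% of its called UMIs. DN28277_c0_g1, DN25862_c0_g2 and DN17595_c0_g1 had between 12.8 and 36.5% of their called UMIs there. They were detected in 7, 11 and 11 of 22 reference-rich barcodes of library 1 and in 11, 14 and 10 of 18 of library 2. The last leading member, DN22537_c0_g6, was named after its values were seen. It shares a component with DN22537_c0_g1, so reads may have been split between them, and it rests on 16 and 17 called UMIs.

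Together the 11 leading members made up 13.9% of the other UMIs of reference-rich barcodes in library 1 and 15.6% in library 2, and 20.6% and 17.8% without the deepest barcode of each. Per barcode this share ran from 2.12 to 38.0% with a median of 20.8% in library 1, and from 1.68 to 51.3% with a median of 16.8% in library 2. In called barcodes with 1 to 9 reference UMIs it was 0.316% and 0.286%, in those with none it was 0.0508% and 0.0385%, and in empty droplets it was 0.119% and 0.0960%. As a sum, the leading members thus stood lower in called barcodes without the reference than in empty droplets, and higher in barcodes with 1 to 9 reference UMIs. Single members differed, and without the reference DN25862_c0_g2 stood at 1.35 and 2.50 times its empty-droplet level. DN17595_c0_g1 stood at 0.710 and 1.54 times, and DN23070_c0_g1 at 0.561 and 1.16 times. The other leading members were below their empty-droplet level in both libraries. The empty droplets here include those that hold the reference. The other 39 members were spread more evenly, at 2.21% and 1.23% of the other UMIs of reference-rich barcodes against 0.491% and 0.326% in the other called barcodes.

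Because reference-rich barcodes are deeper, each called barcode was also thinned at random to 150 other UMIs, with 0 barcodes left out for too few. The median number of members found in a reference-rich barcode was then 10.5 in library 1 and 4 in library 2, against 19 and 29.5 before thinning. In called barcodes with no reference UMI the thinned median was 0 in both libraries, against 1 and 3 before. At least 1 leading member was found in 100% of the thinned reference-rich barcodes of each library. The share was 11.9% and 17.0% of the thinned barcodes with 1 to 9 reference UMIs, and 6.93% and 5.10% of those with none. Without thinning these shares were 23.9% and 58.0%, and 14.9% and 34.5%. The members were chosen by r in these same barcodes, so thinning takes account of depth only and the choice still bears on these values.

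The tail of the list holds abundant, widely found features as well as rare ones. DN17915_c0_g1 had 3911 and 5048 called UMIs, of which 1.53% and 1.15% lay in reference-rich barcodes, 1.57-fold and 1.27-fold its level in other called barcodes. DN22020_c0_g1, DN33358_c1_g2, DN21857_c0_g1 and DN31337_c1_g4 had between 2.21 and 5.43% of their called UMIs there, where reference-rich barcodes held 0.981% of all other UMIs in library 1 and 0.905% in library 2. In all, 28 members had under 10% of their called UMIs in reference-rich barcodes of both libraries, and 23 were found in fewer than 50% of these barcodes in both. Shares under 10% are common, as the median share over all ranked features was 0% in library 1 and 0.575% in library 2. Over the 50 members the medians were 9.09% and 5.08%, which the choice by r bears on.

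Each library's own list was also read in the other library, whose r did not rank that list. Both lists hold only features found in at least 10 called barcodes of each library, and the animals of the libraries may not be separate. Of the 50 features with the highest r in library 1, 25 had r of at least 0.1 in library 2, where 0.318% of all ranked features did. At an r of at least 0.05 the count was 34, against 1.72% of all ranked features, and above 0 it was 47, against 46.8%. Of the 50 with the highest r in library 2, 23 had r of at least 0.1 in library 1, where 0.267% of all ranked features did. At least 0.05 was reached by 31, against 1.5%, and 45 lay above 0, against 46.6%. The lists share 27 features. Each list thus holds a portion that was high in both libraries and a portion that was high only where it was chosen.

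The members were next read in barcodes below the calling threshold, which the choice did not use. These held 90 to 165 UMIs in library 1 and 495 to 1026 in library 2, above most empty droplets, and numbered 7425 and 9666. The reference was in 6.01% of them in library 1 and in 3.06% in library 2, and 20 and 37 of them, called reference-bearing, had at least 3 reference UMIs. The reference-bearing barcodes hold only 2253 other UMIs in library 1 and 24692 in library 2, which limits what can be seen for scarce members. Of the 50 members, 27 had 0 UMIs in the reference-bearing barcodes of library 1 and 5 had 0 in those of library 2. The exact upper end for a count of 0 is 1637 CPM in library 1 and 149 CPM in library 2. In library 1 the members at 0 lay below that level in the other barcodes of the range. A lower level of these members in reference-bearing barcodes was therefore not detectable at this depth, and a higher one was bounded only by 1637 CPM.

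Below the threshold, r with the reference was at least 0.1 in both libraries for 3 members, DN22219_c0_g2, DN31195_c2_g2 and DN23395_c0_g6, and for no other ranked feature (0.0258% of all). Their values were 0.336 and 0.378, 0.161 and 0.362, and 0.119 and 0.369 in libraries 1 and 2. Taken alone, library 1 had 4 members at that level (0.043% of all ranked features were) and library 2 had 7 (0.0603%). Above 0 in both libraries were 36 of 50 members, against 19.3% of all ranked features. The median r of the members was 0.0123 in library 1 and 0.0293 in library 2, against -0.00249 and -0.00125 for all ranked features. DN26861_c0_g3, among the strongest in called barcodes, had r of 0.0123 in library 1, where none of its UMIs fell in a reference-bearing barcode, and 0.264 in library 2.

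The same 3 members had higher levels in reference-bearing barcodes, which restates their r on the same counts and is no separate support. DN31195_c2_g2 had 21 UMIs in reference-bearing barcodes of library 1 and 1071 in those of library 2, which is 9321 CPM (5770 to 14248) and 43374 CPM (40815 to 46052). The other barcodes of the range had 121 and 295 CPM. DN23395_c0_g6 had 43 and 452 UMIs, 55.0-fold and 139-fold its level in the others. DN22219_c0_g2 had 15 and 32 UMIs, 232-fold and 390-fold its level in the others. These folds are smaller than in called barcodes, where the reference-rich set was 577-fold and 826-fold above the rest for DN22219_c0_g2. At least 2-fold in both libraries was reached by 18 members, against 1.49% of all ranked features. With at least 3 UMIs in the reference-bearing barcodes of each library also required, 12 ranked features remained (0.103%), of which 7 were members. They were the 3 above, DN13220_c0_g1, DN23070_c0_g1, DN22537_c0_g1 and DN30548_c0_g1, the last named after its values were seen.

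UMIs summed over reference-bearing and over the other barcodes of this range were compared with edgeR's quasi-likelihood test, with library as a block. Of 9859 features tested, 45 were members. With TMM scaling, 1 feature was higher in reference-bearing barcodes at an adjusted p under 0.05 (0.0101% of those tested) and 0 were lower. The one was DN22219_c0_g2, with a log2 fold change of 6.87 (SE 1.37, adjusted p = 0.00483, higher in 2 of 2 libraries). At an unadjusted p under 0.05, 10 features were higher, 9 of them members. The TMM factor of the smallest sum, with 2253 UMIs, was 3.92, against 0.480 to 0.801 for the other 3 sums, and the median log2 fold change of all tested features was -1.50. On simulated sums the test with TMM recovered none of the changed features, but many abundant features were raised at once there, unlike these data. Features that the test did not call here are not read as unchanged.

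Scaled by total UMIs without TMM factors, the same test called 8 features higher (0.0811% of those tested), and all 8 were members. They were DN13220_c0_g1, DN22219_c0_g2, DN22537_c0_g1, DN23070_c0_g1, DN23395_c0_g6, DN31195_c2_g2, and, named after their values were seen, DN27926_c0_g1 and DN30720_c0_g1. Both of the latter rest on few UMIs in reference-bearing barcodes, 0 and 11 for DN27926_c0_g1 and 1 and 6 for DN30720_c0_g1 in libraries 1 and 2. DESeq2 called 5 features (0.0507%), again all members. With library as a block, the p-values rest on how much the difference between the 2 sums varied between libraries. The spread used for this was estimated with information shared over the features tested. There are only 2 sums a side, and the animals of the 2 libraries may not be separate.

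**Figure D3:**
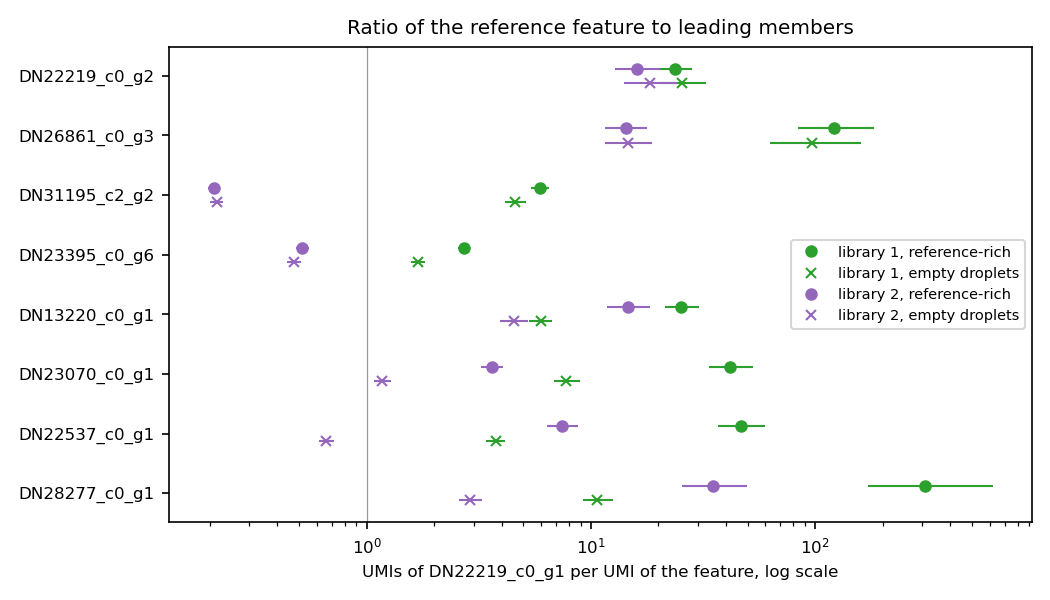
Reference UMIs per UMI of each of 8 leading members in reference-rich barcodes and in empty droplets of each library (log scale), with exact 95% intervals. For DN22219_c0_g2 and DN31195_c2_g2 the values of both sets lie close together within a library, and for DN22537_c0_g1 and DN28277_c0_g1 the reference-rich value is more than 10 times the empty-droplet value.

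The proportion of the reference to 8 of the 11 leading members was set beside the proportion in empty droplets. Empty droplets were set by their total alone, and 45 in library 1 and 49 in library 2 held 3 to 9 reference UMIs. The highest counts in 1 empty droplet were 8 and 23 reference UMIs. How much such barcodes weigh on the proportions was not tested. For DN22219_c0_g2 there were 23.8 reference UMIs per UMI in reference-rich barcodes of library 1 (20.1 to 28.3) and 25.6 in empty droplets (20.4 to 32.6), and in library 2 the values were 16.1 and 18.3. For DN31195_c2_g2 the values were 5.94 (5.43 to 6.50) and 4.60 (4.14 to 5.12) in library 1, and 0.209 (0.197 to 0.222) and 0.215 (0.201 to 0.230) in library 2. The reference-rich value over the empty-droplet value lay between 0.877 and 1.61 for these 2 members, DN26861_c0_g3 and DN23395_c0_g6 in both libraries. Beyond these 4 it was 4.25 and 3.24 for DN13220_c0_g1, 5.39 and 3.08 for DN23070_c0_g1, 12.3 and 11.3 for DN22537_c0_g1, and 28.9 and 12.1 for DN28277_c0_g1. The proportion to the reference thus moved by at most 1.61-fold between the sets for the first 4, and the last 4 had more UMIs per reference UMI in empty droplets in both libraries.

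The proportion also differed between libraries, and did so in both sets of barcodes. Reference UMIs per DN31195_c2_g2 UMI were 28.4-fold higher in library 1 than in library 2 in reference-rich barcodes and 21.4-fold higher in empty droplets. For DN23395_c0_g6 the values were 5.26-fold and 3.56-fold. For DN22219_c0_g2, of the reference's own component, they were 1.48-fold and 1.40-fold. Kit, library and animals differ together here and cannot be told apart.

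The level of each member in all called barcodes was divided by its level in empty droplets. The ratio was above 1 in both libraries for 35 of 50 members, against 43.2% of all ranked features, with medians of 1.19 and 1.75 against 1.06 and 1.11. Called barcodes include the reference-rich ones, so the choice by r bears on this comparison. The highest lower ratio was that of DN25972_c4_g3, at 4.65 and 29.0 in libraries 1 and 2, on 12 and 53 called UMIs. DN27495_c1_g2 had 2.97 and 5.73, DN26539_c0_g1 had 2.62 and 2.63, and DN22219_c0_g2 had 3.43 and 2.61. It was below 1 in both libraries for 8 members and lowest for DN28277_c0_g1, at 0.366 and 0.457, and DN24940_c0_g4, at 0.522 and 0.578. In called barcodes with no reference UMI, a set that leaves out the reference-rich ones, the members' median ratios to empty droplets were 1.02 and 1.48. There DN31195_c2_g2 stood at 0.475 and 0.172 of its empty-droplet level and DN22219_c0_g2 at 0.289 and 0.231. How much free RNA adds to the members' counts was not tested.

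Whether the members also vary together without the reference was read in the 4168 and 3157 called barcodes that had no reference UMI. Among the 55 pairs of leading members the median r there was -0.0019 in library 1 and 0.0133 in library 2, against -0.0033 and 0.0027 for all pairs of ranked features. At least 0.1 was reached by 1 pair in library 1 and 8 in library 2. In all called barcodes the medians were 0.228 and 0.187, with 49 and 47 pairs at that level, where 0.105% and 0.582% of all pairs were. The leading members were chosen by r with the reference in those barcodes, so these values follow in part from the choice. Barcodes without the reference leave out the reference-rich ones, which held at least 50% of the called UMIs of 5 members. A lower r there is therefore in part fixed by the set of barcodes. The one pair at 0.1 or more without the reference in both libraries was DN22537_c0_g1 with DN22537_c0_g6, of 1 component, at 0.166 and 0.107. DN31195_c2_g2 and DN23395_c0_g6 had r of 0.0363 and 0.262, above 0.1 in library 2 alone. Among the 741 pairs of the other 39 members, 27 pairs in library 1 and 133 in library 2 reached 0.1, where 0.116% and 0.591% of all pairs did.

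Reference-rich barcodes were not uniform. After the values were seen, they were divided by whether they held a UMI of DN13220_c0_g1, which gives 18 with and 4 without in library 1, and 7 with and 11 without in library 2. Barcodes with it had higher median depths. Other UMIs per barcode ran from 202 to 6090 with a median of 502.5 with it and from 354 to 562 with a median of 427.5 without it in library 1. In library 2 they ran from 1775 to 9203 with a median of 3626 and from 1064 to 7676 with a median of 2501. Levels below are sums over the barcodes of a set, and the deepest barcode of each library lies in the set with DN13220_c0_g1 and weighs on its sums.

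DN22537_c0_g1 had higher levels where DN13220_c0_g1 was found. It was in 18 of 18 barcodes with it and in 0 of 4 without it in library 1, and in 7 of 7 and 8 of 11 in library 2. Its level in library 1 was 4856 CPM (3806 to 6106) with and 0 CPM (0 to 2083) without, and in library 2 it was 3958 CPM (3287 to 4726) and 1749 CPM (1325 to 2266). Leaving out the deepest barcode raised the values with DN13220_c0_g1 to 7827 and 5412 CPM. In library 2 the difference leaned on 1 other barcode, which held 70 of the 122 UMIs found with DN13220_c0_g1. The level without over the level with ranged from 0.305 to 0.855 there when any 1 barcode was left out.

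DN31195_c2_g2 had lower levels where DN13220_c0_g1 was found. In library 1 it had 28471 CPM with and 81310 CPM without, and 44392 CPM with when the deepest barcode was left out. In library 2 it had 73459 CPM with, 100893 CPM with when the deepest barcode was left out, and 126388 CPM without. The level without over the level with was 1.82 to 3.43 in library 1 and 1.25 to 2.25 in library 2 when any 1 barcode was left out. DN28277_c0_g1 also had lower levels with DN13220_c0_g1, on few UMIs, with 7 against 4 UMIs in library 1 (466 and 2259 CPM) and 11 against 27 in library 2 (357 and 828 CPM). Without the deepest barcode its levels with DN13220_c0_g1 were 783 and 509 CPM.

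For 3 other leading members the direction depended on single barcodes or on the summary. DN23395_c0_g6 had 73239 CPM with and 83569 CPM without in library 1, but 116180 CPM with once the deepest barcode was left out, so the direction turned. In library 2 it had 40688 and 40626 CPM, and 52181 CPM with when the deepest barcode was left out. DN23070_c0_g1 had lower sums with DN13220_c0_g1 in both libraries, at 4257 against 9599 CPM and 4672 against 6873 CPM, while its median over the barcodes of library 2 was 5665 CPM with and 5153 CPM without. DN22219_c0_g2 had 7251 CPM with and 19198 CPM without in library 1 and 1687 and 951 CPM in library 2, where the level without over the level with ranged from 0.411 to 1.49 when any 1 barcode was left out. The division was made on the same barcodes of 2 libraries, and no test was run.

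**Figure D4:**
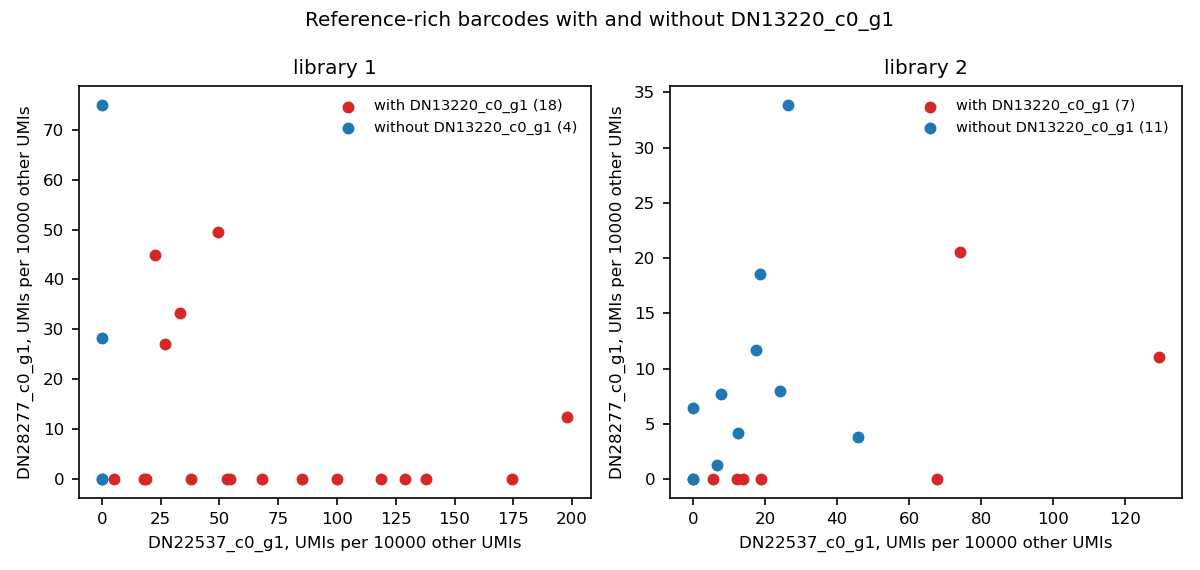
DN28277_c0_g1 (y axis) against DN22537_c0_g1 (x axis), both in UMIs per 10000 other UMIs, with 1 point per reference-rich barcode, coloured by whether it held a UMI of DN13220_c0_g1 (18 with and 4 without in library 1, 7 and 11 in library 2). In library 1 all 4 barcodes without it are at 0 on the x axis, and points at 0 on both axes lie on top of each other.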

How the data were processed

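The authors deposited raw UMI counts per feature and barcode of both libraries in 1 aggregated matrix. Per the file headers and the submitters' processing notes the matrix comes from Cell Ranger 3.0.2. Alignment settings, the transcriptome reference and whether aggregation equalised depth are not given in the sources used here. Barcode suffixes were matched to run numbers, and no other per-sample column was present (0).

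Counts were scaled to 10000 per barcode without the reference and log(1 + x) transformed (numpy 2.4.6, scipy 1.17.1, pandas 2.3.3). Sums of counts were tested with edgeR 4.0.16 in R 4.3.3 on features with at least 10 UMIs in each library over its 2 sums, using TMM, library as a block, Benjamini-Hochberg adjustment and a threshold of 0.05, with DESeq2 1.42.0 and other scalings as alternatives. All 45 members tested also passed this filter on the other barcodes alone, and the 5 not tested had too few UMIs. On simulated sums of the same size, the test with TMM recovered none of the changed features, and the test scaled by totals recovered most of the larger changes. The simulation raised many abundant features at once, unlike these data, where few features were called. It therefore does not settle which scaling is better here. For doublets, Scrublet scores were computed (scanpy 1.11.5, 30 components), and the top 0.8% per 1000 called barcodes were removed as an alternative.

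Named features are the reference, members of its component, the 10 members of highest lower r, the 5 highest and 5 lowest by share of UMIs in reference-rich barcodes, the 3 of highest CPM there, the 2 on each side of the limit, the 3 of smallest p, and the 5 highest and 2 lowest by called over empty-droplet level. Members, lists and tests were chosen with earlier results of these data known. No annotation or sequence of the features was used.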

Additional observations from a re-analysis of the deposited data

How the results depend on the processing

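Of the 50 members, 32 were found again by Spearman correlation, 29 with the reference as present or absent, 19 after thinning each barcode to 150 other UMIs, and 31 to 34 when 1 library chose the list. The other 9 alternatives kept 39 to 50. The count of 5 members with at least 50% of their UMIs in reference-rich barcodes was 8 at 25%, 2 at 75% and 5 to 7 by 1 library alone. The count of 3 members with r of at least 0.1 below the threshold was 7 at r of 0.05, 1 at 0.2, 6 with the lower end at 2 times the most common total, and 4 to 7 by 1 library. The 18 members at least 2-fold higher there became 22 to 35 by 1 library. The edgeR count of 1 feature, a member, was 8 without normalization factors, 2 without a low-count filter, 2 with edgeR's default filter, 5 with DESeq2, 5 when reference-bearing meant 2 UMIs and 0 when it meant 5 UMIs (unadjusted p under 0.05 for 6 features, all members). Every feature called under these settings was a member. Without the replicate block it was 0, with 20 features, 10 of them members, at an unadjusted p under 0.05. The block pairs the 2 sums of each library, and no other pairing was possible because there is only 1 group. Leaving out a library leaves edgeR no residual degrees of freedom, so it was not run. Thinning, the setting of 1 or 2 reference UMIs to 0, the count of leading members and the values without the deepest barcode were added after the data were seen. That count of 11 was 2 with the reference as present or absent, 3 after thinning, 5 with calling at 500 UMIs and 6 with the reference scaled like the others. The causes of these changes were not tested. Depth limits the scarce members, above all in library 1.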
